A study of Mus musculus with 8 samples.

Results

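The 10 genes described here come from the enzyme families that add or remove methyl groups at lysine 4 of histone H3 (H3K4). The genes are Kmt2a, Kmt2c, Kmt2e, Setd1a, Setd1b, Kdm1a, Kdm5a and Kdm5b, with Cxxc1 and Men1 for 2 of the subunits. Kmt2e is among them by family, since H3K4 methylation activity is not established for its product. The 10 genes were chosen by name out of 26160 genes with a symbol in the RNA-seq files. The list was drawn up as writers and erasers of the mark that the PHD finger of the DIDO proteins binds. Transcripts were measured by RNA-seq of sorted pre-B cells pooled from several mice, in 2 libraries per genotype. Omni-ATAC-seq, which marks open chromatin by transposase cutting, was performed on sorted LSK cells, the lin- Sca1+ cKit+ population that holds the hematopoietic stem cells (2 WT and 2 Dido1∆E16 libraries). Dido1∆E16 mice were C57BL/6 young adults with the alleles Dido1 flE16/∆E16 and R26R-EYFP and the iCreVav1 transgene, in which Cre is expressed in blood cells from the Vav1 promoter and removes the last exon of Dido1. Their WT littermates were Dido1 flE16/+ with the same R26R-EYFP and iCreVav1 alleles, so that controls carried Cre and a floxed allele too. The authors state that animals were matched by sex and age. Elsewhere they describe the RNA-seq and ATAC-seq samples as male mice of different ages.

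H3K4 trimethylation lies at active promoters and monomethylation at enhancers. The SETD1A and SETD1B complexes, with the CpG-binding subunit CXXC1, are the main source of promoter trimethylation in most cells. KMT2A works with menin, the product of Men1, at genes such as the Hox cluster, and is known in blood for its role in stem cells and in leukemia with translocations. KMT2C methylates enhancers, and KMT2E is a family member by sequence that reads the mark and for which H3K4 methylation activity is not established. KDM1A (LSD1) removes mono- and dimethylation with the CoREST proteins, and KDM5A and KDM5B remove tri- and dimethylation.

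The promoter sequences below belong to genes whose LSK peaks are described in this report, and not every sequence lies under a peak. They come from the RefSeq promoter table for GRCm38.p6, the same assembly as the mm10 of the deposited files, and run from 250 bases before to 50 bases after an annotated transcription start, 5′ to 3′ on the strand of the gene. Capitals mark each CG dinucleotide, the letters that the CXXC domains of CXXC1 and KMT2A bind when unmethylated. The table held 6 of the 10 genes (Men1, with 3 entries, is not printed), and Kdm5a, Kmt2e, Setd1b and Cxxc1 are named only. The last sequence is the middle 300 bases of the region covered by a MACS2 peak in all 4 LSK libraries, annotated as distal intergenic and lying 3028 to 3327 bp before the Kdm5b start.
Kmt2a promoter, chr9:44881240-44881539, minus strand: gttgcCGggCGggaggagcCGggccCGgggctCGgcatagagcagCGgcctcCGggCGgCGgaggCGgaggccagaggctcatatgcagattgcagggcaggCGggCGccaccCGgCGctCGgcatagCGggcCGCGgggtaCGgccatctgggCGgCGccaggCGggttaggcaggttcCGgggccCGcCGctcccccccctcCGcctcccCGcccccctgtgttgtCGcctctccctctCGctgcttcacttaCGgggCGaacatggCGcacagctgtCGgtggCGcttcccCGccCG
Kmt2c promoter, chr5:25498734-25499033, minus strand: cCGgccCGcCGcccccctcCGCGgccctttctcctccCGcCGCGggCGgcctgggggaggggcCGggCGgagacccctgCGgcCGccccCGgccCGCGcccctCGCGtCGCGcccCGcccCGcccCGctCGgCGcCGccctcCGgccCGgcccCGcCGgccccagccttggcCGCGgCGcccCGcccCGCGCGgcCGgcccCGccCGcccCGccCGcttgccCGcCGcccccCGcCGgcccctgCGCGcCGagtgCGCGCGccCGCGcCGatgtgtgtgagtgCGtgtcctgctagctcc
Setd1a promoter, chr7:127777139-127777438, plus strand: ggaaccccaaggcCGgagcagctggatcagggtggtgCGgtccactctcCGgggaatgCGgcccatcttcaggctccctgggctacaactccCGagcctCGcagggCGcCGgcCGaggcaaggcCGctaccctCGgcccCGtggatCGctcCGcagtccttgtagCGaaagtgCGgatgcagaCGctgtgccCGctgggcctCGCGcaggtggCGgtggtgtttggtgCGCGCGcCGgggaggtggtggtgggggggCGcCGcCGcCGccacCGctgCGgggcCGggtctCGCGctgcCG
Kdm1a promoter, chr4:136602674-136602973, minus strand: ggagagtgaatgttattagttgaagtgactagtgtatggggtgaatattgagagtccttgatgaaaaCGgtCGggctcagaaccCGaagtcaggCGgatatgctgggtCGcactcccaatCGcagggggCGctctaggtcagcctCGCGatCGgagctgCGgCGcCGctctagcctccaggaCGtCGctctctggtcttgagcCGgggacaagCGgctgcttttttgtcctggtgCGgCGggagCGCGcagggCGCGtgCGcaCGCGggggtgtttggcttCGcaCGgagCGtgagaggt
Kdm5b promoter, chr1:134559928-134560227, plus strand: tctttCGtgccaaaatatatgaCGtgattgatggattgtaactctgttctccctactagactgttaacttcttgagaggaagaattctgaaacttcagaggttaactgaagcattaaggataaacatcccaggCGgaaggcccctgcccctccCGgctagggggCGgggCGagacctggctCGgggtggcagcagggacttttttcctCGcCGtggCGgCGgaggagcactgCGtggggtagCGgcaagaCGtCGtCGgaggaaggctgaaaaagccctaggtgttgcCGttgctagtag
Kdm5b upstream accessible region, chr1:134556851-134557150, plus strand: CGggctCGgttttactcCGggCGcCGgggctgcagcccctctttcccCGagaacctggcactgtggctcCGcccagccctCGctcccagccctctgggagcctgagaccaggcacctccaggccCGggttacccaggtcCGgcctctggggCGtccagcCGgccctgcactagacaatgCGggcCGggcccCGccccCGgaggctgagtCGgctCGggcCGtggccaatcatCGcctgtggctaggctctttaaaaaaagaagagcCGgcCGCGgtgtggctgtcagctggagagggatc

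Kmt2c had the densest promoter in CG, with 56 dinucleotides in 300 bases, and 0.195% of the 32851 promoters in the table had as many. Kmt2a had 36 (6.23% of promoters had as many), Setd1a 35 (6.95%), Kdm1a 29 (12.9%) and Kdm5b 17 (31.4%), against a median of 7 over all promoters. The Kdm5b upstream region had 23 CG dinucleotides. On either strand, the GC box GGGCGG, which itself holds a CG, occurred 10 times in the Kmt2c promoter, 5 times in that of Kmt2a and 1 time in that of Kdm5b, and the upstream Kdm5b region held 2. It was not found in the windows of Setd1a and Kdm1a, and 35.7% of all promoters held it. CCAAT was found in the Kdm1a promoter and in the upstream Kdm5b region (37.4% of promoters), CCGGAA in the Kmt2a promoter alone (14.9%), and TATAAA in none of the 6 sequences (13.6%). These matches describe the letters only.

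The files gave 2 limits that touch all results. Of the transcripts listed in all 4 RNA-seq libraries, 30124 of 63753 carried a symbol in the authors' files, and the others held 23.3% to 25.04% of the TPM. Of the rest, 26256 were given the GENCODE gene on the same strand that held at least 50% of their exonic bases, and 7373, with 2.14% to 2.48% of the TPM, stayed without a symbol. By the authors' symbols alone Men1 would be listed at 0 in all libraries, because its only expressed transcript (uc008gic.2) had no symbol. In the ATAC-seq files the number of MACS2 peaks differed widely between libraries, with 27352 and 57739 in WT and 13208 and 16329 in Dido1∆E16, and the tag totals did not follow it (10249256 and 52050898 in WT, 22533077 and 44633938 in Dido1∆E16). Promoters made up 35.8% and 22.6% of the peaks in WT and 58.8% and 47.8% in Dido1∆E16. The sources used here do not state the unit of the MACS2 score.

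The labels and the sort were checked first. The last exon of Dido1 had 50.1% and 42.8% of the mean coverage of the other exons in WT, against 0.911% and 0.198% in Dido1∆E16. Markers of other stages and cells differed between libraries. The 9 pro-B and large pre-B markers summed to 1503 and 496 TPM in WT and 2759 and 2019 TPM in Dido1∆E16, and 5 of them had an unadjusted p under 0.05, none past the adjusted threshold. The 10 neutrophil and monocyte markers summed to 247 and 2219 TPM in WT and 1080.4 and 9777 TPM in Dido1∆E16, and 5 erythroid markers to 301 and 922 TPM against 677 and 8641 TPM. The 6 small pre-B markers summed to between 2604 and 2735 TPM per library, the 5 mature B markers to between 522 and 604 TPM (Ighd was listed at 0 throughout), the 4 plasma cell markers to between 224 and 279.9 TPM and the 9 T and NK markers to between 20.8 and 41.3 TPM. Of the last list, Cd3e, Cd3g, Cd4, Cd8a and Ncr1 were listed at 0 in all 4 libraries. WT replicate 2 stood apart in cycling genes, with 25.03 TPM of Mki67 against 228, 86.3 and 139 TPM in WT replicate 1 and Dido1∆E16 replicates 1 and 2, and 45.7 TPM of Top2a against 503, 189 and 255 TPM. The part of these differences in the values below was not tested, and in bulk samples fewer cells of a type and less RNA per cell cannot be told apart.

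All 10 genes were expressed in pre-B cells, from 33.4 TPM for Setd1b to 156 TPM for Kmt2e (TPM summed over the transcripts of a gene, mean of 4 libraries), and none was called changed in Dido1∆E16. The limma fit on log2(TPM + 1) tested 11871 genes with a mean of at least 1 TPM. A gene was called where its adjusted p (Benjamini-Hochberg) was under 0.05 and its log2 fold change was 0.6 or more in either direction. Over all genes 3 were called higher and 3 lower (0.0253% in each direction), so that 0 of 10 says little of these genes. None of the 10 had an unadjusted p under 0.05, compared with 1383 of all genes tested. Simulated data used the spreads of these libraries, reassigned at random between genes. There 0% of genes changed by 1 or 2 log2 units and 79% of those changed by 4 were called. A change of a few fold was thus not detectable in that simulation. The 10 genes did not keep their own spread in it, so what was detectable for them was not measured.

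**Figure D1:**
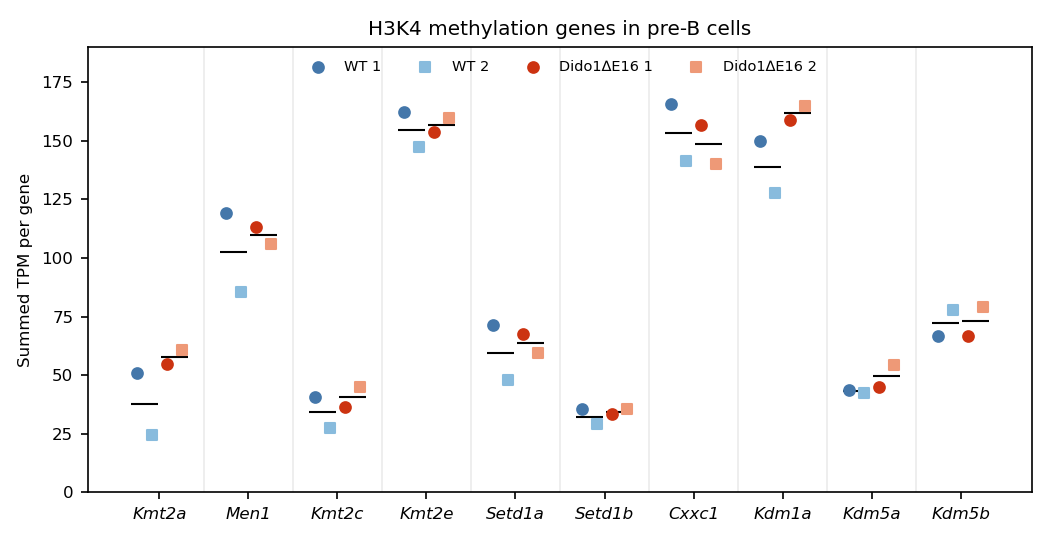
Summed TPM of each gene (vertical axis, TPM) in the 4 pre-B libraries, with WT replicates in blue, Dido1∆E16 replicates in red and a black bar at each group mean. The WT and Dido1∆E16 libraries are separated for Kmt2a, Kdm1a and Kdm5a, with the lowest Kmt2a value (24.5 TPM) in WT replicate 2.

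Among the methyltransferase genes, Kmt2a differed most. Its level was 50.7 and 24.5 TPM in the WT libraries (37.6 ± 18.6, SD, n = 2) and 54.6 and 60.8 TPM in the Dido1∆E16 libraries (57.7 ± 4.35). Both Dido1∆E16 values lay above both WT values, and WT replicate 2 was the low library. The log2 fold change was 0.69 (SE 0.38, 95% interval -0.35 to 1.73, adjusted p = 0.594, limma), and it was 1.20 without WT replicate 1 and 0.18 without WT replicate 2. Men1, whose product menin joins KMT2A, had 119 and 85.7 TPM in WT and 113 and 106 TPM in Dido1∆E16. Its groups overlapped, with a log2 fold change of 0.12 (SE 0.20, adjusted p = 0.870).

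Kmt2c, the enhancer methyltransferase, had 40.7 and 27.6 TPM in WT and 36.4 and 45.0 TPM in Dido1∆E16. Kmt2e had 162 and 147 TPM in WT and 154 and 159.9 TPM in Dido1∆E16. Both genes overlapped between genotypes, with log2 fold changes of 0.26 (SE 0.26) and 0.02 (SE 0.12). Setd1a had 71.2 and 47.9 TPM in WT and 67.8 and 59.4 TPM in Dido1∆E16, and Setd1b 35.5 and 29.0 TPM against 33.5 and 35.6 TPM. Both encode the catalytic subunit of a complex that CXXC1 targets to CpG islands. Cxxc1 had 166 and 141 TPM in WT and 157 and 140.2 TPM in Dido1∆E16. The 95% intervals of the log2 fold change ran from -0.54 to 0.77 for Setd1a, from -0.38 to 0.58 for Setd1b and from -0.44 to 0.36 for Cxxc1, the only gene of the 10 with a fold change below 0 (-0.04).

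Of the demethylase genes, Kdm1a had 150.1 and 128 TPM in WT (139 ± 15.7) and 159 and 165 TPM in Dido1∆E16 (162 ± 4.21). The groups did not overlap, and the log2 fold change was 0.22 (SE 0.14, 95% interval -0.15 to 0.60, adjusted p = 0.631, limma). Kdm5a had 43.6 and 42.6 TPM in WT and 45.0 and 54.5 TPM in Dido1∆E16, again without overlap, with a log2 fold change of 0.20 (SE 0.16, adjusted p = 0.691). Kdm5b had 66.8 and 77.7 TPM in WT and 66.7 and 79.1 TPM in Dido1∆E16. Its replicates differed more than its genotypes, and the log2 fold change was 0.01 (SE 0.17).

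In all, 3 of the 10 genes (Kmt2a, Kdm1a and Kdm5a) had both Dido1∆E16 libraries above both WT libraries and 0 had both below, compared with 27.1% and 15.6% of all genes tested. The median log2 fold change was 0.12 for the 10 genes and 0.07 for all genes tested, and 9 of the 10 values were above 0. WT replicate 2 was the lowest library for 8 of the 10 genes. The shares of all genes for these counts were not computed. WT replicate 2 also had the lowest median log2 value over all genes, 4.80 against 4.92 in WT replicate 1 and 4.98 and 4.90 in Dido1∆E16. Without it the median of the 10 genes was -0.02 and 4 of 10 values were above 0. With each library centred on its median, 7 of the 10 were above 0, and Kmt2e (-0.06) and Kdm5b (-0.07) were below it with Cxxc1.

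By mean level the order was Kmt2e (156 TPM), Cxxc1 (151 TPM), Kdm1a (150.5 TPM), Men1 (106 TPM), Kdm5b (72.6 TPM), Setd1a (61.6 TPM), Kmt2a (47.7 TPM), Kdm5a (46.4 TPM), Kmt2c (37.4 TPM) and Setd1b (33.4 TPM). TPM is a level per transcript length. Only the steps from Kdm1a to Men1 and from Men1 to Kdm5b had ranges over the 4 libraries that did not overlap, and the other 7 neighbouring pairs overlapped. Kmt2e was higher than 89.3% of the genes tested and Setd1b than 53.3%, so that the whole list lay in the upper part of the expressed genes.

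The partner subunits and the readers of H3K4 methylation were examined as lists. None of the 21 partners was called, 13 had a log2 fold change above 0 and 8 below, and the median was 0.02. Pagr1a, named after its value was seen, was the only partner with an unadjusted p under 0.05, and had 144 and 132 TPM in WT and 109 and 80.9 TPM in Dido1∆E16. The largest positive value was that of Ncoa6, a subunit of the KMT2C and KMT2D complexes, with 39.97 and 28.5 TPM in WT and 40.6 and 50.9 TPM in Dido1∆E16 (log2 fold change 0.42, SE 0.24, adjusted p = 0.609, limma). The largest negative value was that of Kdm5d, the KDM5 gene of the Y chromosome, with 29.4 TPM and 0 in WT and 6.44 TPM and 0 in Dido1∆E16 (-1.01, SE 2.00). It was listed at 0 in the second replicate of each genotype. The authors describe the RNA-seq samples as male, and the sex make-up of each pool was not tested, so it may differ between libraries.

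Of the 15 readers none was called, 5 were above 0 and 10 below, with a median of -0.11. Sgf29, whose product brings the SAGA acetyltransferase to the mark, had 59.4 and 60.2 TPM in WT and 41.1 and 33.97 TPM in Dido1∆E16 (log2 fold change -0.66, SE 0.16, adjusted p = 0.302, limma). It was the only reader with an unadjusted p under 0.05. The largest positive value was that of Bptf, the PHD subunit of the NURF remodeler, with 101 and 74.7 TPM in WT and 102 and 117 TPM in Dido1∆E16 (0.33, SE 0.20). No difference between the 3 lists was tested.

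**Figure D2:**
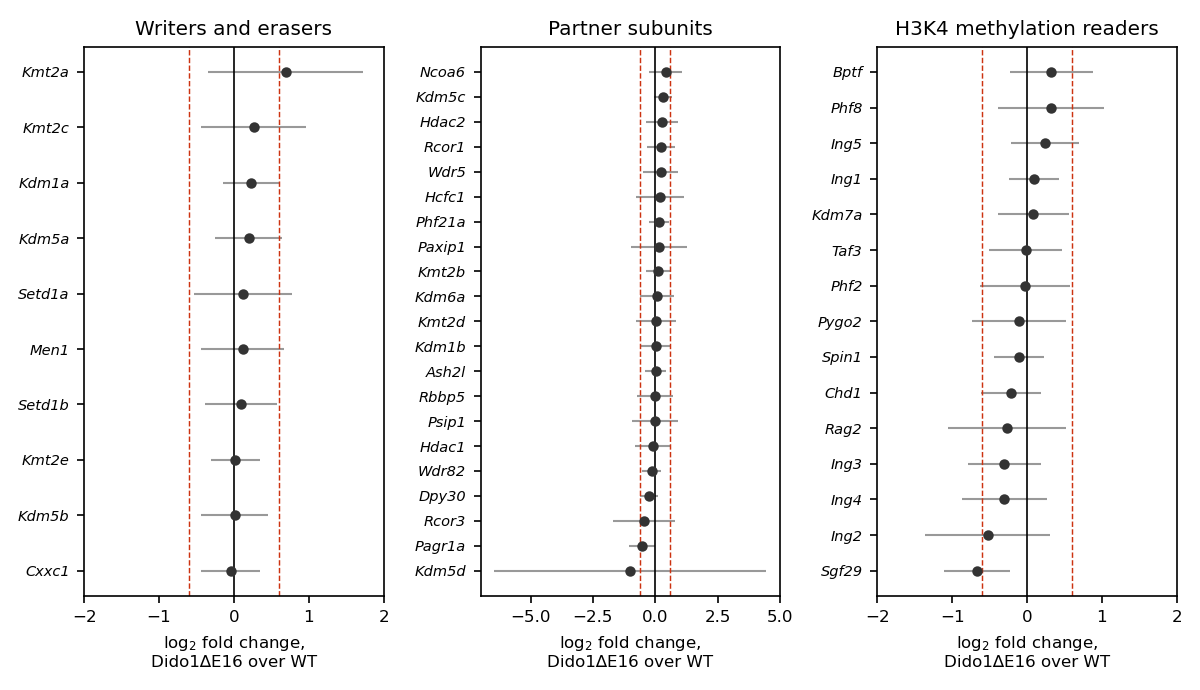
Log2 fold change (horizontal axis, Dido1∆E16 over WT, log2(TPM + 1) scale) with its 95% interval from limma, for the 10 writers and erasers, 21 partner subunits and 15 readers, with the 0.6 threshold dashed and a wider axis for the partners. Kmt2a reaches 0.69 with an interval across 0, and Sgf29 lies lowest among the readers at -0.66.

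The annotated transcripts behind these sums were compared next. In each gene 1 transcript held most of the TPM in each library: in Kmt2e (uc008wqa.2), Kmt2c (uc008wsv.1), Setd1a (uc009jwt.1) and Men1 (uc008gic.2) its share was 98.3% or more. It was at least 87.2% in Setd1b (uc008zng.2), Cxxc1 (uc008fpg.1) and Kdm1a (uc008vig.2) and at least 81.3% in Kdm5a (uc009dne.2). Of 19 transcripts of the 10 genes with a mean of at least 1 TPM none was called by limma, while 25 of 16372 transcripts were called over all genes (0.153%), and 1 of the 19 had an unadjusted p under 0.05, as had 1507 of the 16372. Over all genes 97 transcripts were called without the trend and 0 with the replicate block, under which none of the 19 had an unadjusted p under 0.05. None was listed at 0 in both libraries of a genotype with 5 TPM or more in the other.

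The transcripts that follow were named after their values were seen. The transcript of Kdm5a with that p, uc009dnf.2, covers chr6:120364099-120419561 and ends before the last exons. It had 2.97 and 3.19 TPM in WT and 7.68 and 7.45 TPM in Dido1∆E16 (log2 fold change 1.07, SE 0.32, adjusted p = 0.483, limma). Its 2 values were close within each genotype and did not overlap between genotypes. Coverage of 5′ parts relative to 3′ parts was higher in Dido1∆E16 over the whole libraries, as described below. The part of that shift in the values of this transcript, which lacks the last exons, was not tested. A short Kdm1a transcript, uc008vih.1, had 10.4 and 11.1 TPM in WT and 15.9 and 18.6 TPM in Dido1∆E16 (0.63, SE 0.22, adjusted p = 0.553). In Kdm5b, uc007csg.2 had 18.4 and 30.5 TPM in WT and 5.001 and 32.1 TPM in Dido1∆E16, and the low value stood against 58.9 TPM of the main transcript uc011wsg.1 in the same library. In Kmt2a, uc009pep.1 had 7.92 TPM and 0 in WT and 17.3 TPM and 0 in Dido1∆E16. It shares both ends with uc009peq.1 and has 16439 exonic bases against 16448, so that few reads separate them.

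Coverage along the main transcripts differed between the genotypes. The mean coverage of the 5′ part of each main transcript (the first 50% of its exonic bases) was divided by that of the 3′ part. In Kmt2a the 5′ part had 22.6% and 23.9% of the coverage of the 3′ part in WT and 39.6% and 50.9% in Dido1∆E16. In Kmt2c it had 23.9% and 28.3% in WT and 35.8% and 48.2% in Dido1∆E16. These 2 genes have the longest transcripts of the list (16448 and 16820 bases) and the lowest ratios. In Kdm5a the ratio was 116% and 129% in WT and 163% and 197% in Dido1∆E16, the only gene of the list with more coverage of its 5′ part in all libraries.

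Each Dido1∆E16 library had a higher ratio than either WT library in 10 of the 10 genes. The same held for 56.8% of 9015 genes measured and for 75.6% of those whose main transcript has at least 5000 exonic bases, and the opposite for 4.55%. The median ratio over all genes was 80.8% and 79.7% in WT and 89.5% and 93.4% in Dido1∆E16, so the shift was present over the whole libraries. On the TPM scale of the main transcript alone, the Kmt2a 5′ part had 15.8 and 9.46 in WT and 21.1 and 41.0 in Dido1∆E16. Its 3′ part had 69.9 and 39.5 in WT and 53.2 and 80.5 in Dido1∆E16. The 5′ parts did not overlap between genotypes (a log2 difference of 1.20) and the 3′ parts did (0.31). In Kdm5a the 3′ part was lower in Dido1∆E16, with 27.8 and 31.4 against 37.3 and 33.8 in WT, and the 5′ part was higher, with 45.3 and 61.9 against 43.4 and 43.7. Over the 10 genes the log2 difference ran up to 1.20 in the 5′ parts, where each value was above 0, and from -0.26 to 0.31 in the 3′ parts. These differences were not computed for all genes. The cause of the shift was not tested.

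**Figure D3:**
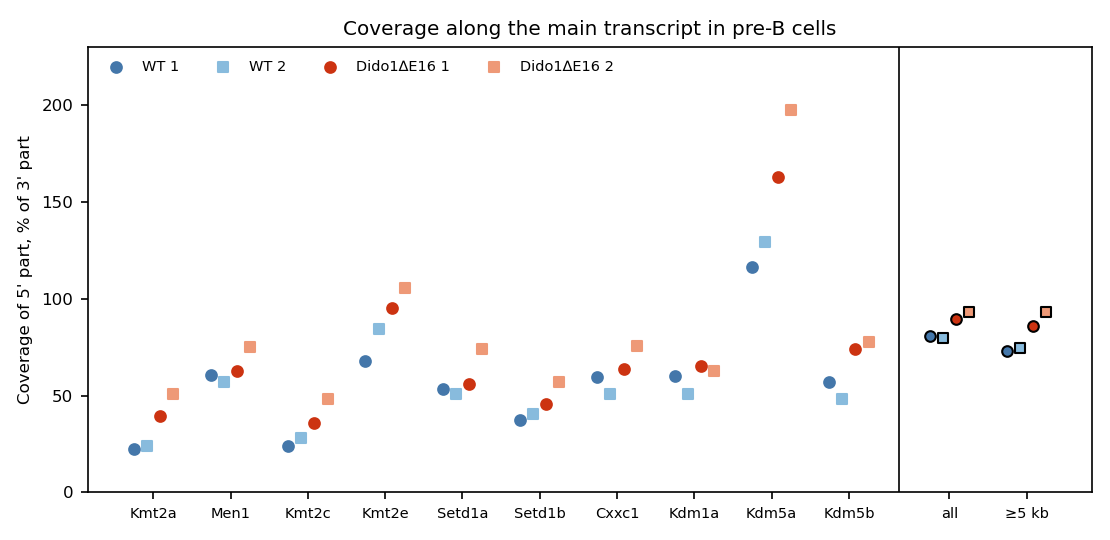
Coverage of the 5′ part of the main transcript as a percent of that of the 3′ part (vertical axis) in each pre-B library for the 10 genes, with the library medians over all genes and over transcripts of at least 5000 bp at the right. In every gene both Dido1∆E16 points lie above both WT points, and the library medians are ordered in the same way.

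In LSK cells the question was whether chromatin at these genes differed with the genotype. A promoter peak by the authors' annotation was present in all 4 libraries for 3 of the 10 genes, Cxxc1, Kdm1a and Kdm5a, compared with 46.2% of the genes tested in pre-B cells. The share was 10 of 21 for the partners and 11 of 15 for the readers. That annotation gives each peak to 1 gene, and Kmt2c and Kmt2e share their promoters with noncoding genes on the other strand. By position, counting any MACS2 peak from 1000 bp before to 200 bp after the start of the main transcript, 5 of the 10 genes had a peak in all 4 libraries, against 54.4% of all genes, and Kmt2c and Kmt2e were among them.

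**Figure D4:**
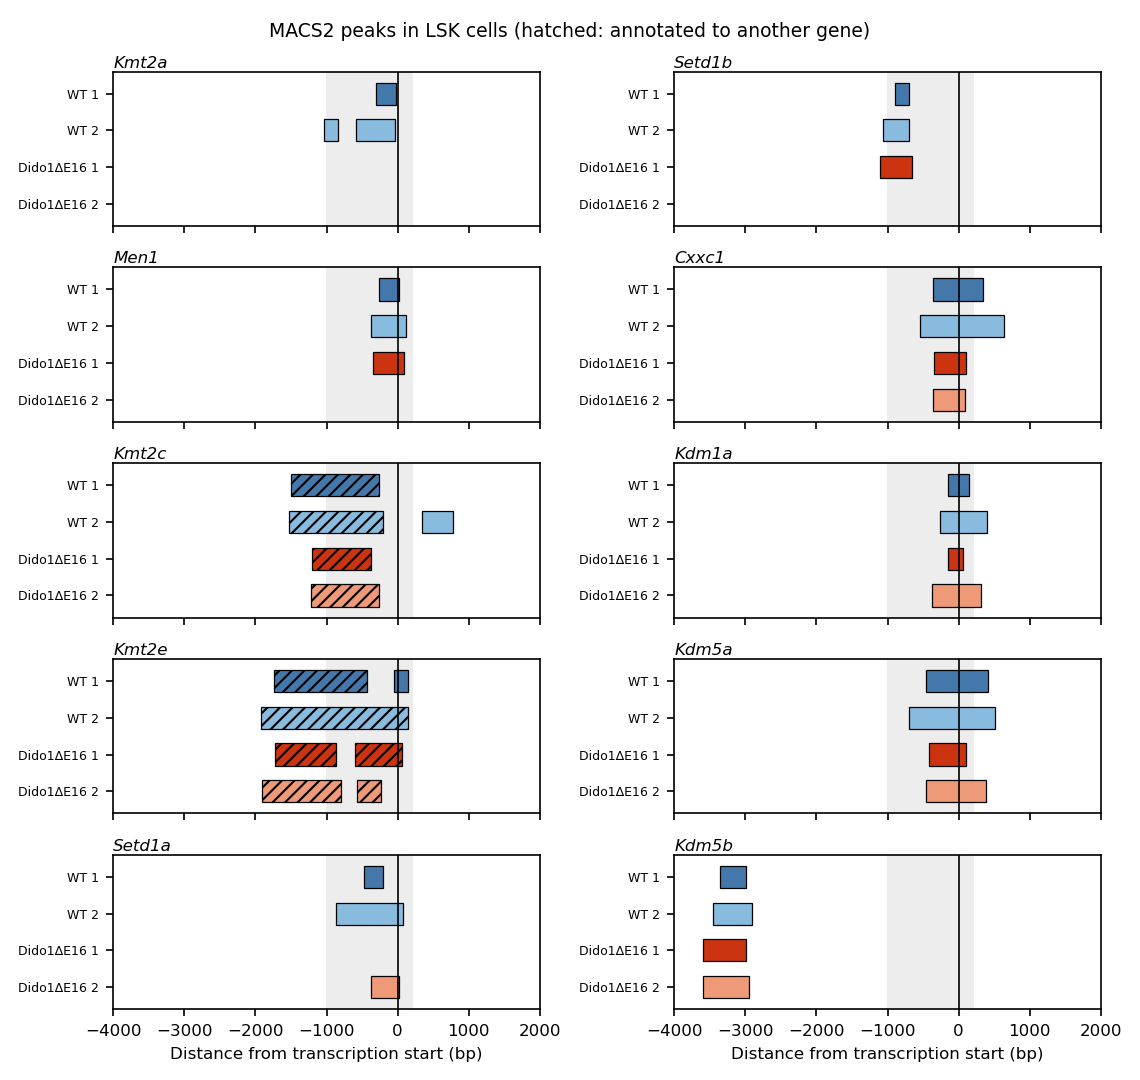
MACS2 peaks around the start of the main transcript (horizontal axis, bp, 5′ to the left) in the 4 LSK libraries, with the promoter window shaded and hatching for peaks that the authors annotated to another gene. The Kmt2a window has peaks in the WT libraries alone, Kmt2c and Kmt2e have hatched peaks in every library, and the Kdm5b peaks lie between -3602 and -2904 bp.

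Counted by symbol, Kmt2a was the only 1 of the 10 genes with fewer peaks in each Dido1∆E16 library than in either WT library (1 and 2 in WT, 0 and 0 in Dido1∆E16), while 35.6% of 17769 genes with a peak had fewer and 0.191% had more. None of the 10 had more. The count of 1 depended on the peak lists: it was 5 without WT replicate 1 (74.6% of all genes), 3 without Dido1∆E16 replicate 1 (41.6%), 2 with HOMER peaks (19.5%) and 0 with equal numbers of peaks per library (7.16%), where the Kmt2a difference was 0 too. The WT-shared part of the Kmt2a peak, chr9:44881309-44881572, lies within 300 bp before the start and largely inside the promoter printed above. Its MACS2 scores were 28 and 23 in WT replicates 1 and 2, a further peak of WT replicate 2 scored 36, and the highest score in the window ranked above no more than 36.0% and 35.2% of the peaks of the library. HOMER called a region in the Kmt2a window in all 4 libraries, 233 and 1877 bp wide in WT and 211 and 1398 bp wide in Dido1∆E16. In 6.04% of all genes the window had a peak in both WT libraries and in neither Dido1∆E16 library.

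Of 9 regions that the WT libraries shared and that were annotated to these genes, the Kmt2a region was the only 1 without a peak in either Dido1∆E16 library. The MACS2 count of Kmt2e rests on the annotation, since its other peaks were given to a neighbour. Among all WT-shared regions 43.7% lacked such a peak, and among those at promoters 15.0%. Without WT replicate 1, 9 of 16 regions of these genes lacked a peak in both Dido1∆E16 libraries, and 69.9% of all regions did. The counts of these genes were therefore near or below the background. No test was run on the peaks. The smallest two-sided p of an exact permutation of 2 against 2 libraries is 0.333.

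At the Kmt2c promoter the peak lay between -1526 and -207 bp from the start, and only that of WT replicate 2 reached into the printed sequence. It was annotated to 4831440E17Rik. It scored 48 and 99 in WT and 32 and 40 in Dido1∆E16, and was 1243 and 1320 bp wide in WT against 833 and 954 bp in Dido1∆E16. Both scores and widths were lower in the Dido1∆E16 libraries, without overlap. The HOMER regions were 1985 and 3030 bp wide in WT and 697 and 953 bp in Dido1∆E16. No share over all genes was computed for peak widths, here or at the promoters below. At Kmt2e the peaks were annotated mostly to 5031425E22Rik, and the best score was 61 and 156 in WT and 74 and 61 in Dido1∆E16. WT replicate 2 had a single peak of 2076 bp there, and each of the other libraries had 2 separate peaks.

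Cxxc1 had the strongest promoter peak of the list in all 4 libraries, with scores of 184 and 279 in WT and 183 and 135 in Dido1∆E16. Each ranked above at least 98.1% of the peaks of its library. The peak was 706 and 1187 bp wide in WT and 459 and 454 bp in Dido1∆E16. Setd1a had promoter peaks with scores of 28 and 55 in WT and 18 in Dido1∆E16 replicate 2, and no peak in Dido1∆E16 replicate 1. Setd1b scored 18 and 39 in WT and 23 in Dido1∆E16 replicate 1, and Men1 39 and 108 in WT and 35 in Dido1∆E16 replicate 1. Setd1b and Men1 had no MACS2 peak in Dido1∆E16 replicate 2, in which HOMER called a region at both.

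The Kdm1a promoter peak scored 55 and 97 in WT and 27 and 17 in Dido1∆E16. Those scores ranked at 75.7% and 80.5% of the peaks of the WT libraries and at 25.7% and 14.8% of the Dido1∆E16 libraries. Ranks were taken within peak lists that differ in length and in promoter share, so they describe a place in each list and not a change at the gene. The widths overlapped, with 292 and 669 bp in WT and 224 and 696 bp in Dido1∆E16. Kdm5a scored 50 and 167 in WT and 92 and 44 in Dido1∆E16, with ranks of 71.4% and 93.4% against 87.7% and 72.7%, and its groups overlapped. Kmt2c, Cxxc1 and Kdm1a, 3 of the 5, scored lower in each Dido1∆E16 library than in either WT library, compared with 54.9% of 6459 windows with a peak in all 4. The same 3 genes had lower ranks, compared with 60.3% of windows.

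**Figure D5:**
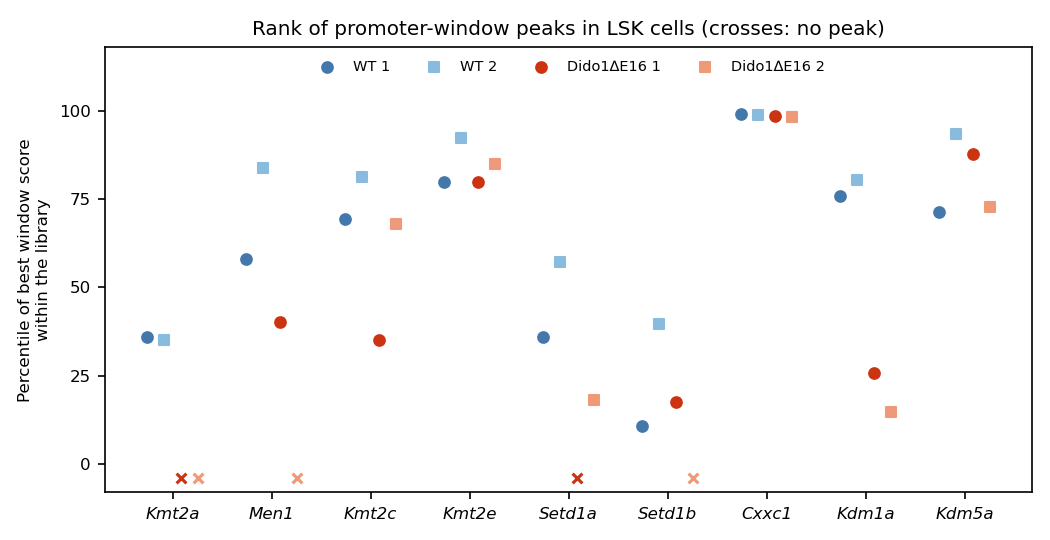
Rank of the best MACS2 score in the promoter window among all peaks of its library (vertical axis, percentile) for 9 genes in the 4 LSK libraries, with crosses where no peak was called and Kdm5b left out because it had none. The WT points of Kdm1a lie at 75.7 and 80.5 and its Dido1∆E16 points at 25.7 and 14.8, and the 4 Cxxc1 points lie above 98.

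Kdm5b had no MACS2 peak in its promoter window in any library, and HOMER called 1 there in WT replicate 2 alone. Its single MACS2 peak per library was the upstream region printed above, with scores of 42 and 116 in WT and 38 and 34 in Dido1∆E16 and widths of 369 and 550 bp against 606 and 659 bp. The score was lower and the width greater in both Dido1∆E16 libraries. The shares of all such regions with these orders of score and width were not computed. In pre-B cells the gene sum was 72.6 TPM, over 3 transcripts with means of 49.6, 21.5 and 1.42 TPM that all start at chr1:134560178, inside the printed promoter. The 2 assays were made on different cells.

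The authors' lists of differential regions gave tag counts on a log2 scale for 3 of the 10 promoters. In the list that took WT as target, the Kmt2e region (chr5:23432434-23435970) had 9.60 and 9.38 in WT and 8.99 and 8.33 in Dido1∆E16. The Kmt2c region (chr5:25497405-25500436) had 8.61 and 8.38 in WT and 7.76 and 7.55 in Dido1∆E16, and the Cxxc1 region 8.88 and 8.82 against 8.20 and 7.69. The differences were -0.83, -0.85 and -0.90 on the log2 scale, with no overlap between genotypes. Tags were scaled to a common total per library, but the transform that gave the log2 values is not stated in the sources used here. The size of these differences therefore cannot be read as a fold of accessibility. The list with Dido1∆E16 as target held the same 3 promoters, with differences of -0.81 for Kmt2e, -0.85 for Kmt2c and -0.90 for Cxxc1. Both lists hold only regions that passed the authors' test, and 99.9% of the 8540 regions in the first and 99.6% of the 5231 in the second were lower in Dido1∆E16, whichever genotype was the target. The other 7 genes had no listed region in their promoter window.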

How the data were processed

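RNA-seq of pre-B cells and Omni-ATAC-seq of LSK cells were analysed, with 2 libraries per genotype and assay by the labels. The authors aligned RNA-seq reads to mm10 with BWA-MEM, removed duplicates and ran StringTie 2.0 on UCSC known genes. For each transcript the deposited tables give coverage, FPKM and TPM. For ATAC-seq the authors ran MACS2 and HOMER on each library and annotated the peaks with ChIPseeker, and the deposited MACS2 files hold a score and a width in bp per peak. The authors' deposited lists of differential regions hold log2 tag counts per library, and their fold changes and p-values, like those of the authors' edgeR tables, were not used. The submitters' processing notes also name BWA 0.7.15, without saying for which reads. ChIP-seq was not analysed here, and 1 list of markers is not reported here.

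TPM was summed per gene and log2(TPM + 1) was fitted by genotype with limma 3.58.1 in R 4.3.3 (eBayes with a trend, no block). Counts of reads were not given, so intervals and p-values rest on the spread between the 2 libraries of a genotype. The fit moderates that spread of each gene towards a trend shared by all genes tested. StringTie coverage summed to between 1121 and 1635 megabases per library. The WT libraries correlated at 0.922 and the Dido1∆E16 libraries at 0.924 (Pearson, log2 scale), across genes, which are not independent replicates. The fit was tested on simulated data with 200 changed genes, and the overlap rules on simulated intervals against an exhaustive search. Peaks overlapped from 1 bp. Python 3.11.15 with pandas 2.3.3 was used for the peaks.

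The members and lists were chosen with earlier results of these data known. Named were all 10 members, the highest transcript of each, and of the other lists the called genes and the largest value in each direction. The alternatives were a pseudocount of 0.1, no filter, FPKM, median-centring, TPM without immunoglobulin transcripts, the replicate number as a block, eBayes without its trend, HOMER peaks, the same number of best-scoring peaks, an overlap of 50%, promoter peaks alone, score ranks and leaving out each library. The authors' symbols alone and counting by position were added after seeing the data.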

Additional observations from a re-analysis of the deposited data

How the results depend on the processing

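No member was called under any setting tried for gene sums, and no member transcript with the trend, without it or with the replicate block, the settings run for transcripts. Without a trend limma called 74 genes higher and 13 lower over all genes, and 0 with a pseudocount of 0.1, without a filter, with the replicate block or without any 1 library. Without WT replicate 1, 2 members had an unadjusted p under 0.05, as had 2599 of the 11871 genes. The replicate numbers were not used as pairs. The correlation of same-numbered deviations was 0.05 over 11871 genes, with 2 numbers only, while Kdm5d was listed at 0 in the second replicate of each genotype and coverage was 1581 and 1635.06 megabases in the first replicates and 1121 and 1173 in the second. With the replicate block 0 members were called and the median log2 fold change of the members stayed at 0.12. Leaving out 1 library moved that median between -0.0229 (without WT replicate 2) and 0.29 (without WT replicate 1). The other 8 settings left it within the spread between library medians. The fold change of Kmt2e became -0.0043 with FPKM and -0.0641 with median-centring, and that of Kdm5b -0.0124 and -0.0726. When 1 library was left out the range was -0.16 to 0.0701 for Cxxc1, -0.11 to 0.13 for Kdm5b, -0.0074 to 0.54 for Kmt2c, -0.0487 to 0.0905 for Kmt2e, -0.12 to 0.35 for Men1, -0.17 to 0.40 for Setd1a and -0.0384 to 0.24 for Setd1b. Kmt2a, Kdm1a and Kdm5a stayed above 0 under all settings. For these genes both Dido1∆E16 libraries lay above both WT libraries, so leaving out 1 library could not reverse the sign. Leaving out a library was therefore no test of their direction.

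With HOMER peaks, 2 members had fewer peaks in both Dido1∆E16 libraries (19.5% of all genes with a peak). Of 11 WT-shared regions 0 lacked a Dido1∆E16 peak (29.3% of all regions), and 5 members had a promoter peak in all 4 libraries. When each library was cut to its 13208 peaks of highest score these were 0 (7.16%), 0 of 6 (13.3%) and 2, in place of 1, 1 and 3. By position 5 members had a promoter peak in all 4 libraries. Leaving out 1 library gave 2 to 5 members with fewer peaks. There were 5 without WT replicate 1 (74.6% of all genes with a peak) and 3 without Dido1∆E16 replicate 1 (41.6%). There were 2 without WT replicate 2 (45.0%) and 2 without Dido1∆E16 replicate 2 (44.3%). Without WT replicate 1, 9 of 16 regions lacked a Dido1∆E16 peak (69.9% of all regions), and without WT replicate 2, 1 of 9 (45.6%). Without Dido1∆E16 replicate 1 it was 4 of 9 (51.2%), and without Dido1∆E16 replicate 2 it was 2 of 9 (57.9%). From 3 to 5 members had a promoter peak in the remaining libraries (5 without Dido1∆E16 replicate 2). The share of all genes with a promoter peak was not computed for these alternatives. The cause of these changes was not tested.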
